A study of Mus musculus with 2 samples.

Results

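The mouse genes Kcnj16, Kcnj2 and Sox9 lie along a gene-poor stretch of chromosome 11, and CTCF occupancy across it was read from ChIP-Seq of mouse embryonic stem cells (ESCs). The region ran from the start of Kcnj16 to the end of Sox9 with 500 kb added on each side, chr11:110329347-113149074 of the mm9 build, 2820 kb in all. It held 26 of the 33788 CTCF peaks that the authors deposited, and 12 of the 26 had their summit between Kcnj2 and Sox9. The 26 summits are numbered here from 1 to 26 in chromosome order. By the GENCODE M1 annotation, all 3 genes are read along increasing coordinates: Kcnj16 (ENSMUSG00000051497.8) at chr11:110829347-110889282, Kcnj2 (ENSMUSG00000041695.2) at chr11:110927478-110938135 and Sox9 (ENSMUSG00000000567.4) at chr11:112643538-112649074.

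The cells were R1/E ESCs, an established line, in which CTCF with a C-terminal LAP tag that contains GFP was expressed from a stably integrated bacterial artificial chromosome, beside the endogenous gene. The CTCF-GFP library came from a pull-down with a goat antibody against GFP, and the control library from a pull-down with goat IgG, which its label also calls input DNA. Both used chromatin of this tagged line, fixed in 1% formaldehyde and sheared by sonication into fragments of about 500 bp, so untagged cells were not among the groups. There was 1 library per antibody and hence no replicate: every interval and test below compares these 2 libraries and covers counting error only. The CTCF library held 8391191 tags (521350 on chr11) and the IgG library 7988889 (423920 on chr11), and ratios were scaled to these totals. The libraries hold chromatin and no RNA, so the cell type was not checked against expressed markers.

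CTCF is a zinc-finger protein that binds a long, asymmetric DNA motif and halts the cohesin ring as cohesin extrudes chromatin loops. Loop anchors typically carry motifs that point towards each other, called convergent, and such anchors often mark the borders of topological domains. Kcnj2 and Kcnj16 encode inward-rectifier potassium channel subunits, which help to set the resting membrane potential. Sox9 encodes a transcription factor that drives cartilage formation and testis development, and its enhancers are spread over long distances in the gene desert around it. Sox9 and Kcnj2 are known to lie in neighbouring domains, and duplications that cross the border between them can bring Sox9 enhancers into contact with Kcnj2.

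The motifs at the summits between the genes and at sites 5, 8, 24 and 25 on their flanks are shown because the direction in which each one reads decides how neighbouring sites face each other. The CTCF matrix used here had the consensus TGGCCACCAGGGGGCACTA over 19 bases. A motif was called plus when the strand with this order of bases runs along increasing coordinates, and minus when it runs the other way. In each line below, the 19 bases of the match are in capitals with 5 reference bases on either side in lower case, read 5′ to 3′ along the motif's own strand.
Site 5, plus strand of chr11:110399016-110399044: taaagTGACCACAAGGGGGCAGCAaaaca
Site 8, minus strand of chr11:110903693-110903721: tcttgTAACCACAAGGTGGCGCAAtaggg
Site 10, minus strand of chr11:111307284-111307312: tgtaaTAACCACCAGAGGGCGAAAgagat
Site 11, minus strand of chr11:111384977-111385005: tggttTGGCCAACAGGTGGCGCCAttgtg
Site 12, minus strand of chr11:111393961-111393989: ccatgTGACCACTAGATGGCAGAGtagtg
Site 13, plus strand of chr11:111397527-111397555: gttgtCTACCGCCAGATGGCAGCAtgcac
Site 14, plus strand of chr11:111399148-111399176: acatgTTACCAGCAGGTGGCAGTCcagta
Site 15, plus strand of chr11:111514368-111514396: actggATTCCAAAAGAGGGCAGTGgaagt
Site 16, minus strand of chr11:111964752-111964780: gcctcCAACCACTAGAGGTCAGTAgcagc
Site 18, minus strand of chr11:112421166-112421194: tctgcAAGCCAGAAGAGGGCGCCTgatct
Site 19, plus strand of chr11:112452298-112452326: cttgtTTACCAGTAGGTGGCGCTGttggg
Site 20, minus strand of chr11:112580042-112580070: tgataTGTCCAGAAGGGGGAGTTGtggag
Site 24, plus strand of chr11:113036791-113036819: ctaccTGGACACTAGAGGGCGCCAtaccc
Site 25, plus strand of chr11:113037658-113037686: ctaccTGGACACTAGAGGGCGCCAtaccc
These sequences are those of the mm9 reference. Sites 24 and 25 carried identical motifs, and the 21 motifs of the region matched the consensus at 11 to 15 of the 19 bases.

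CTCF tags exceeded IgG tags at each of the 26 summits. Within 150 bp of the summits the CTCF library had 370 tags in sum and the IgG library 27, a ratio of 13.0 after scaling (95% interval 8.82 to 20.1), against 14.3 over all deposited summits. CTCF tags per summit ran from 9 to 24 and IgG tags from 0 to 4. Over all deposited summits they ran from 6 to 113 and from 0 to 54, but the extremes of 33788 summits cannot be compared with those of 26. No IgG tag was found at 9 of the 26 summits, and at 12229 of all 33788. Since the peaks had been called from these same tags, this describes the peaks and is no separate evidence for them. In an exact binomial test with Benjamini-Hochberg adjustment, 26 of 26 summits passed an adjusted p of 0.05, as did 94.9% of all deposited summits. In a recount against the highest local IgG rate, 21 of 26 summits (80.8%) passed p 1e-05, against 85.6% of all deposited summits. The other 5, sites 2, 18, 19, 22 and 23, each held 9 CTCF tags and stood at p 1.23e-05, just outside the threshold.

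**Figure D1:**
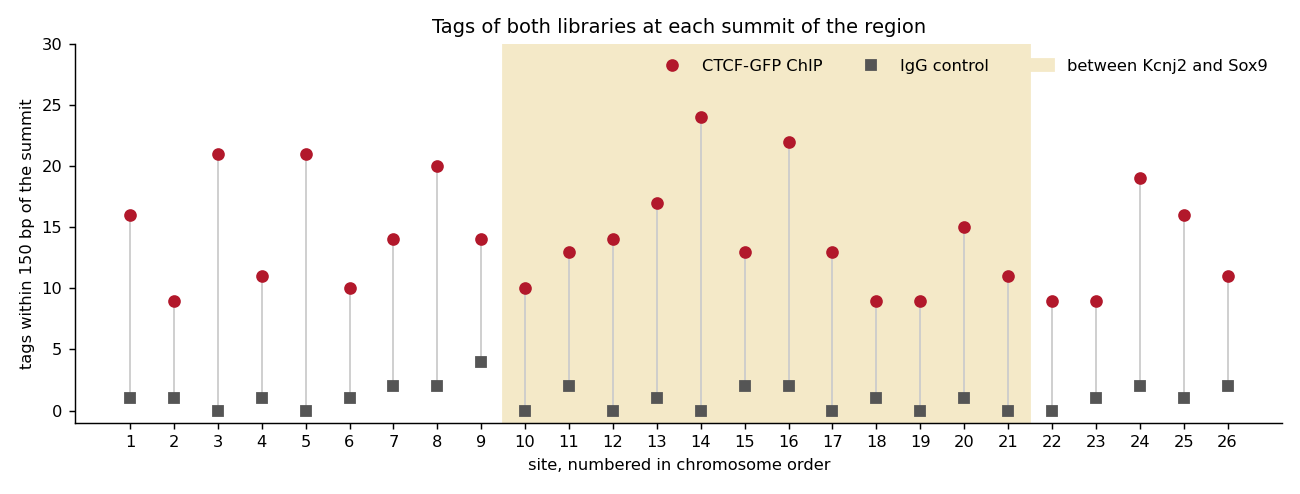
CTCF-GFP (circles) and IgG (squares) tags within 150 bp of each of the 26 summits, with the shaded sites 10 to 21 lying between Kcnj2 and Sox9. CTCF tags run from 9 to 24 and IgG tags from 0 to 4, with 1 library per antibody and no replicate.

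The summits of the region were of ordinary height. The height, the number of stacked tags that the authors' peak caller gave for a summit, was 8 to 21 with a median of 13.5, against a median of 13.0 over all deposited summits. The median peak score, 10 times the negative log10 of the p-value that the caller gave, was 97.6 against 117, and the median width was 802 bp against 832 bp. Summits with at least 20 tags of height numbered 2 of 26 (7.69%), against 14.7% of all. The highest were site 14 (21 tags), site 8 (20), site 5 (19) and sites 3 and 16 (18 each). Of all deposited summits 90.3% were no higher than site 14. Among unshifted CTCF tags, plus-strand tags were more numerous on the left at 25 of 26 summits, and minus-strand tags on the right at 25 of 26. The summits had been called from these same tags, so this layout is no separate evidence of binding. Its share over all deposited summits was not counted.

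**Figure D2:**
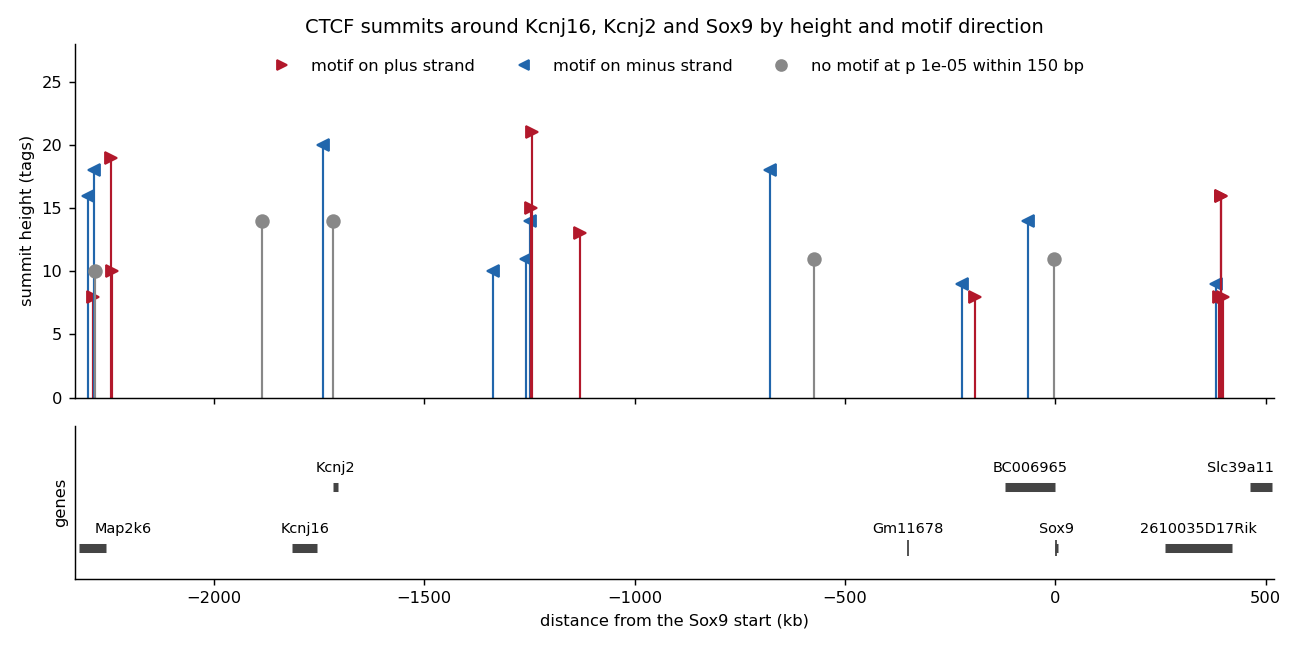
Height in tags of each of the 26 summits (upper panel) against distance from the Sox9 start in kb, with arrowheads for the motif direction, above the annotated genes (lower panel, in 2 rows so that names do not overlap). Sites 10 to 15 lie 1336 to 1129 kb before the Sox9 start, 3 with minus motifs followed by 3 with plus motifs.

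None of the 3 gene starts showed CTCF above IgG beyond counting error. At Sox9 no tag of either library fell within 500 bp of the start, at Kcnj2 the CTCF library had 4 tags and the IgG library 3, and at Kcnj16 the counts were 2 and 0. By the exact binomial test with Benjamini-Hochberg adjustment over all 34256 gene starts with a tag, the adjusted p was 1.00 for Kcnj2 and 0.996 for Kcnj16, and over the genome 4.27% of these starts passed with more CTCF tags. At this depth such counts allow a wide range: the Kcnj2 ratio was 1.27 with an interval of 0.215 to 8.67, and no ratio could be had for Sox9. Within 1000 bp the counts were 2 CTCF and 1 IgG tags at Sox9, 11 and 8 at Kcnj2, and 7 and 3 at Kcnj16, with no adjusted p under 0.788. The sequence within 500 bp of the Sox9 start had a GC content of 62.6%, against 56.5% at Kcnj2 and 39.2% at Kcnj16. Among the 2842 protein-coding starts within 2 points of the GC content of Sox9, the median was 3 CTCF tags and 1 IgG tag, and 3.69% had no tag of either library. CTCF was thus not detectable at the Sox9 start at this depth, which does not show that it is absent there.

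Nor did the bodies of the 3 genes hold a summit. Sox9 had 9 CTCF and 5 IgG tags over its whole length, a ratio of 1.71 (0.516 to 6.51), Kcnj2 31 and 43 (0.686, 0.418 to 1.11) and Kcnj16 222 and 232 (0.911, 0.754 to 1.10). Each of these intervals included 1. Summits did lie just upstream of Kcnj2 and of Sox9, while Kcnj16 had none within 70 kb of its start.

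The summit nearest to the Kcnj2 start was site 9, 1277 bp upstream at chr11:110926201. It had a height of 14 tags, with 14 CTCF and 4 IgG tags within 150 bp, and its ratio of 3.33 (1.05 to 13.9) was the lowest in the region. No motif at p 1e-05 lay within 150 bp of it. Site 8, with 20 CTCF and 2 IgG tags, stood 14.5 kb past the end of Kcnj16 and 23.7 kb before Kcnj2, and carried a minus motif of p 8.44e-08. These were both summits of the 38.2 kb between the Kcnj genes. The summit nearest to the Kcnj16 start was site 7, 70699 bp upstream of it, with 14 CTCF and 2 IgG tags. It had no motif within 150 bp either, but a plus motif of p 2.25e-06 lay 165 bp from the summit inside its peak.

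Next to Sox9, site 21 at chr11:112641428 was 2110 bp upstream of the gene start, in an intron of the long non-coding RNA gene BC006965, which runs in the opposite direction. Its height was 11 tags, with 11 CTCF and 0 IgG tags within 150 bp and 33 against 3 over the whole peak of 1310 bp. No motif at p 1e-05 was found near this summit either: the best match, at p 1.94e-05 on the minus strand, lay 171 bp to its left. Site 20, 63.5 kb before Sox9 in the same non-coding gene, had 15 CTCF and 1 IgG tags and a minus motif of p 7.71e-07. The summits nearest to the starts of Kcnj2, Kcnj16 and Sox9 were thus 3 of the 5 in the region with no motif within 150 bp, beside sites 4 and 17. For sites 4 and 7 this rested on the distance, since each had a motif farther out in its peak (p 1.84e-07 at site 4), and sites 9, 17 and 21 had none at p 1e-05 anywhere in the peak. Over all summits 73.6% had a motif by this measure, and in the region 21 of 26 (80.8%, 62.1 to 91.5) did.

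Between the end of Kcnj2 and the start of Sox9, 1705 kb held 12 summits, 10 with a motif. The first, site 10, lay 369 kb past the end of Kcnj2 and had 10 CTCF tags and no IgG tag within 150 bp, with a minus motif of p 2.85e-07. It was followed by the densest group of the interval. Site 11 had 13 CTCF and 2 IgG tags, with a minus motif of p 4.58e-08. Site 12 had 14 CTCF and 0 IgG tags, with a minus motif of p 7.10e-08. Site 13 had 17 CTCF and 1 IgG tags, with a plus motif of p 6.73e-07. Site 14, the highest of all, had 24 CTCF and 0 IgG tags, with a plus motif of p 2.75e-08. These 4 summits spanned 14.1 kb, 447 kb past the end of Kcnj2 and 1244 kb before the start of Sox9. Site 15, with 13 CTCF and 2 IgG tags and a plus motif of p 1.56e-06, came 115 kb after site 14.

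Sites 11 to 14 lay close together and mostly had wide peaks, of 810, 1212, 1377 and 1220 bp. Together they held 154 CTCF and 14 IgG tags, a ratio of 10.5 (6.06 to 19.6). That was 46.0% of the 335 CTCF tags in the 12 peaks between the genes. In the genome, 872 of 33696 runs of 4 neighbouring summits (2.59%) were as tight, and 7.57% of summits belonged to such a run. Past Sox9, sites 23 to 26 formed an even tighter run of 9.72 kb (1.22% of runs as tight).

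Motif direction turned inside this group. Within 150 bp of the summits, sites 10, 11 and 12 carried minus motifs and sites 13, 14 and 15 plus motifs. By these motifs the turn fell in the 3361 bp between sites 12 and 13. The motifs on its sides pointed away from each other: those on the left towards Kcnj2, those on the right towards Sox9. Farther from its summit, the site 13 peak also held a minus motif (chr11:111396963-111396981, p 4.42e-06) with 8 CTCF and 2 IgG tags. Counting it would place the turn inside that peak. Among 24743 runs of 6 neighbouring summits with a motif in the genome, 425 (1.72%) had 3 minus motifs followed by 3 plus motifs, and 374 (1.51%) had the reverse. The pattern was singled out after the directions had been seen, and its share of the runs is given as a description only.

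From site 15 to Sox9, 1129 kb held 6 summits. Site 16, at 679 kb from the Sox9 start, had 22 CTCF and 2 IgG tags, a width of 1125 bp and a minus motif of p 6.11e-07. Sites 15 and 16 were the ends of the longest stretch without a summit in the region, 450.2 kb. Their motifs faced each other across it, plus on the left and minus on the right. Site 17, 573 kb from Sox9, had 13 CTCF and 0 IgG tags within 150 bp, but 25 and 5 over its peak, and no motif. Sites 18 and 19, 222 and 191 kb from Sox9, were the weakest between the genes. Site 18 had 9 CTCF and 1 IgG tags with a minus motif of p 7.54e-08, and site 19 had 9 and 0 with a plus motif of p 1.24e-08, so a strong match did not go with a high summit at either. The only other annotated protein-coding gene of this interval, Gm11678 (chr11:112292504-112292950), had no tag of either library within 500 bp of its start.

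Before Kcnj16, the 500 kb held 7 summits, 6 of them gathered in its first part. Sites 1 to 4 lay in Map2k6 (chr11:110260436-110386836), which encodes a kinase that activates p38, 3 in introns and site 3 in an exon. Site 3 had 21 CTCF and 0 IgG tags, with a minus motif of p 2.29e-07. Site 5, in intergenic sequence at chr11:110398942, had the highest score of the region, 324.91, with 21 CTCF and 0 IgG tags within 150 bp and 46 and 1 over the peak. Its plus motif, at p 1.09e-09, was also the best match at any of the 26 summits. Site 6 lay 3.00 kb further on with 10 CTCF and 1 IgG tags. Its summit carried a plus motif, and a minus motif of p 2.66e-06 lay farther out in its peak. The other sites in Map2k6 had 16 CTCF and 1 IgG tags (site 1), 9 and 1 (site 2), and 11 and 1 (site 4).

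Past Sox9, all 5 summits fell within 17 kb of each other, in introns of the non-coding RNA gene 2610035D17Rik (chr11:112905209-113063152). The nearest, site 22, was 378 kb past the end of Sox9. Sites 24 and 25 were the highest, each with 16 tags of height, and had 19 CTCF and 2 IgG tags and 16 and 1. Sites 22, 23 and 26 had 9 and 0, 9 and 1, and 11 and 2. By the match with the lowest p, site 22 carried a minus motif and sites 23 to 26 plus motifs. Site 26 also had a minus match of p 5.16e-06 within 150 bp of its summit. The identical motifs of sites 24 and 25 were 867 bp apart and lay within an exact match of 38 bp. Beyond it the sequences diverged, with 54.5% identity over 150 bp on either side, and 4 of 285 words of 35 bases, the length of a tag, were shared, so few tags could come from either copy. The remaining protein-coding gene, Slc39a11 (chr11:113106167-113511393), which encodes a zinc transporter, reached into the region without a summit there.

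Over the whole region, 11 motifs were plus and 10 minus (52.4% plus), against 49.8% plus over all summits with a motif. Of the 20 pairs of neighbouring summits with motifs, 4 were convergent (20.0%, 8.07 to 41.6), 5 divergent, 6 both plus and 5 both minus, and in the genome 24.9% of pairs were convergent. The kinds of pair differed little in number but widely in distance. The convergent pairs were sites 2 and 3 (832 bp), 6 and 8 (502 kb), 15 and 16 (450.2 kb) and 19 and 20 (128 kb). The divergent pairs were all within 41.2 kb, and 5 of the 6 pairs with both motifs plus within 10 kb. Long distances were not particular to convergent pairs: the 5 pairs with both motifs minus were 9.10, 77.6, 404, 447 and 456 kb apart. Pairs passed over summits without a motif within 150 bp: site 4 lay between sites 3 and 5, and site 7 between sites 6 and 8. Sites 9, 17 and 21 lay inside the both-minus pairs of 404, 456 and 447 kb. Counting the plus motif 165 bp from the site 7 summit would make sites 7 and 8, 145 kb apart, the convergent pair. In the genome the median distance was 52.5 kb for convergent and 28.9 kb for divergent pairs, and 9.94% of convergent against 4.77% of divergent pairs were at least 300 kb apart. With 4 and 5 pairs in the region these are single distances, and no test of them was run.

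**Figure D3:**
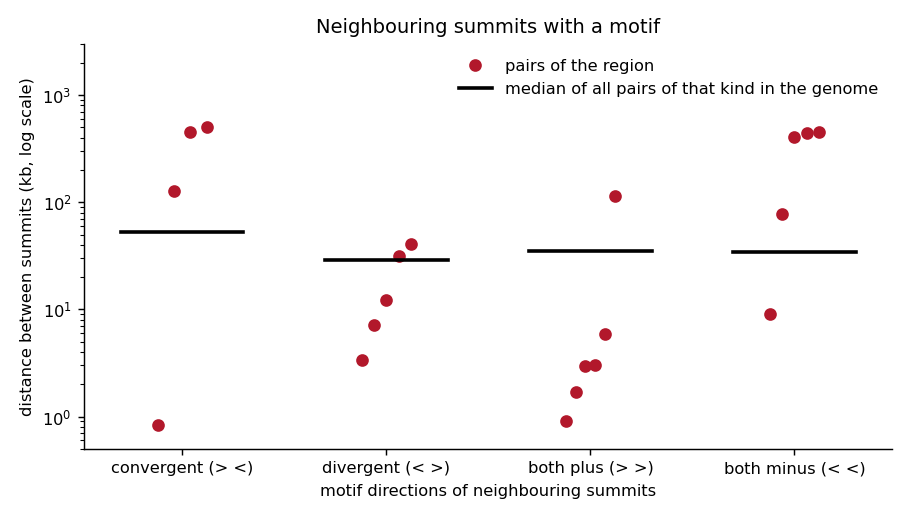
Distance in kb (log scale) between neighbouring summits that both have a motif, by the directions of the motifs; each point is 1 of the 20 pairs of the region and each bar the median of all such pairs in the genome. Of the 4 convergent pairs 3 are 128 to 502 kb apart, of the 5 both-minus pairs 3 are 404 to 456 kb apart, and the 5 divergent pairs are 3.36 to 41.2 kb apart. Summits without a motif within 150 bp are passed over, so some pairs have another summit between them.

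Summits came in groups with long stretches without a summit between them. Of the 25 gaps between neighbouring summits, 5 were 300 kb or longer (20.0%, against 4.79% in the genome and 1.75% on chr11): 357 kb between sites 6 and 7, 381 kb between sites 9 and 10, 450.2 kb between sites 15 and 16, 350.2 kb between sites 17 and 18 and 385 kb between sites 21 and 22. Together they made up 1924 kb, 68.2% of the region. At the short end, 10 of 25 gaps (40.0%) were 10 kb or shorter, against 28.5% in the genome. The median gap, 31.2 kb, was close to the 25.6 kb of the genome. In the genome 97.4% of gaps were no longer than the longest of these.

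The density of summits depended on what it was set against. There were 9.22 summits per Mb in the region (6.02 to 13.5) and 7.04 between Kcnj2 and Sox9 (3.64 to 12.3), against 23.1 on chr11, a gene-rich chromosome, and 13.2 in the genome. Between the genes the density was 0.305 times that of chr11 (0.158 to 0.532). Against 643 stretches of at least 500 kb without a protein-coding gene, which pooled 3.51 summits per Mb, it was 2.01 times as high (1.04 to 3.50). Of these stretches 81.3% had fewer summits per Mb. The interval between the genes holds the protein-coding gene Gm11678 and so is not itself such a stretch. The stretch from Kcnj2 to Gm11678 alone had 8 summits in 1354 kb, or 5.91 per Mb. That was close to the upper quartile of the 643 stretches, 5.84 per Mb. Strong motifs were also sparser in the region, at 75.9 per Mb against 147 on chr11 and 100.3 in the genome, and their part in the density was not tested.

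Sites chosen by sequence alone gave a measure of occupancy that did not rest on the CTCF peak calls. The matrix itself came from CTCF motifs that the study listed at sites of the cohesin subunit RAD21 in ESCs. The region held 214 motif matches at p 1e-05, of which 179 had at least 1 tag within 150 bp. By the exact binomial test with Benjamini-Hochberg adjustment over all such sites of the genome, 16 of the 179 (8.94%) had more CTCF than IgG tags, against 12.4% in the genome. Of the 16, 15 lay in deposited peaks. Between Kcnj2 and Sox9 it was 9 of 86 (10.5%). In the same test on matches at p 1e-06, 15 of 48 passed in the region (31.2%), against 27.8% in the genome. Neither share of the region was tested against that of the genome, so no order between them is drawn. In all, 27 of the 214 (12.6%) lay in a peak, as did 12.4% in the genome, so a match here was about as often in a peak as elsewhere. The 27 had 2 to 25 CTCF tags with a median of 12, and the other 187 had a median of 1 and a maximum of 13. Outside peaks the CTCF to IgG ratio, pooled over the 187, was 1.60 (1.32 to 1.95), against 2.03 in the genome.

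**Figure D4:**
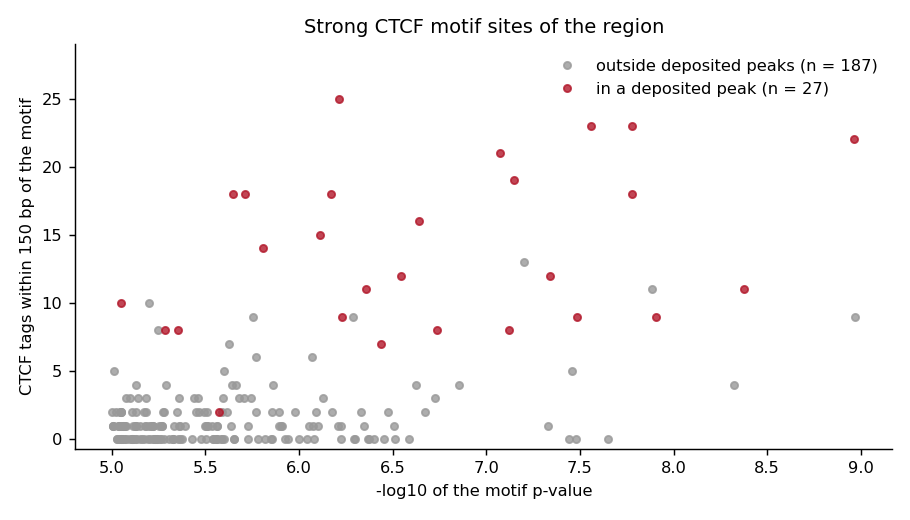
CTCF tags within 150 bp of each of the 214 motif matches at p 1e-05, against -log10 of the motif p-value, for matches in (red, n = 27) and outside (grey, n = 187) deposited peaks. Matches in peaks have 2 to 25 tags, and several of the lowest motif p-values lie outside peaks with few tags.

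The one match outside peaks that passed lay between the genes, at chr11:112012432-112012450 on the plus strand, with 9 CTCF and 0 IgG tags (adjusted p 0.0328 by the exact binomial test), 47697 bp from the nearest summit. The 3 matches with the lowest motif p outside peaks did not pass, and each held the same run of 12 bases, CCAGAAGAGGGC. They are shown because they are as good as the best occupied motifs of the region, with capitals as before.
Plus strand of chr11:111928665-111928693, motif p 1.07e-09: ccctgAGGCCAGAAGAGGGCGCCAaatcc
Plus strand of chr11:111959129-111959157, motif p 4.76e-09: ctcacAGACCAGAAGAGGGCACCAggtac
Minus strand of chr11:113019555-113019583, motif p 1.30e-08: tacagTGGCCAGAAGAGGGCGTTGggttc
The first had 9 CTCF and 2 IgG tags (ratio 4.28, 0.887 to 40.7, adjusted p 0.326), the second 4 and 1 (adjusted p 0.863) and the third 11 and 5 (adjusted p 0.705). The second lay 5601 bp from a summit. Of the 24 matches of the region with this run of bases on the motif strand, 3 were in a peak, and none of the 17 with a tag passed the test, while in the genome 5502 of 50112 such matches were in a peak and 10.1% passed. Outside peaks their pooled ratio was 3.36 (1.87 to 6.43) in the region, against 1.42 (1.16 to 1.76) for matches without the run, and the genome had 4.11 and 1.73. The 3 in peaks were sites 2, 6 and 18, with heights of 8, 10 and 9 tags. Over all summits with a motif, 16.4% had a motif with this run, with a median height of 12 tags against 14 for the rest. This run was picked out after the sequences had been seen.

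A CpG inside the motif was common at the summits of the region. Of the 21 motifs 14 (66.7%, 45.4 to 82.8) held one, against 39.6% (39.0 to 40.2) of the 24843 motifs at summits in the genome. The identical motifs of sites 24 and 25, each with a CpG, were counted separately among the 14. The motifs of sites 14 and 16, the highest summits between the genes, held none, nor did those of sites 1, 5, 12, 15 and 20. The GC content within 150 bp of the summits ran from 34.6% to 60.8% with a median of 44.5%, and that of the region was 41.9%, against 43.8% on chr11. CpGs in the motif can be methylated, and methylation was not measured here.

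Outside peaks the 2 libraries did not run alike across the region. Per 10 kb of sequence outside peaks there were 28.9 CTCF and 35.1 IgG tags, a ratio of 0.785 (0.762 to 0.809), against 1.01 on chr11 and 0.898 in the genome. Chr11 had 37.9 CTCF and 35.7 IgG tags per 10 kb, and the genome 29.3 and 31.1. The CTCF background was thus lower than on chr11 but close to that of the genome, where the IgG background was lower. In windows of 10 kb with peaks masked, the median CTCF count was 28 in the region and 35 on chr11 (0.800 times), while the IgG medians were 35 and 35 (1.00 times). A ratio below those of chr11 and the genome was found in each longer section: 0.834 before Kcnj16, 0.756 between Kcnj2 and Sox9 and 0.805 past Sox9. The CTCF to IgG ratio at strong motifs outside peaks, given above, was also lower here than in the genome, and the part of the background in it was not tested.

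**Figure D5:**
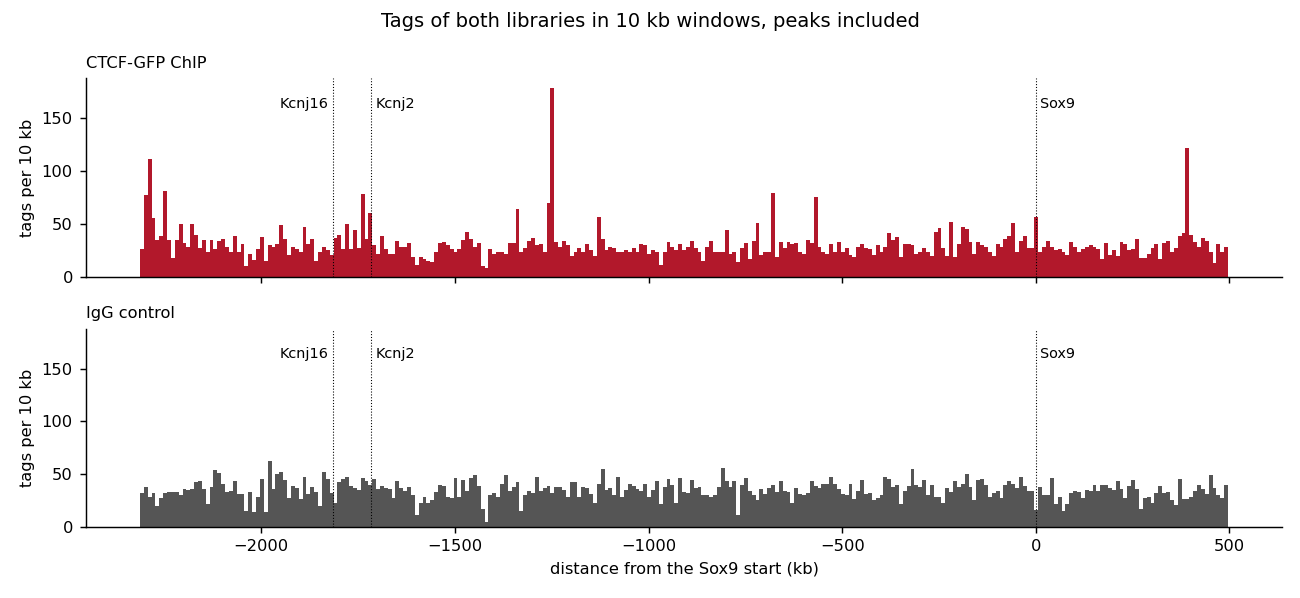
CTCF-GFP (upper) and IgG (lower) tags in windows of 10 kb, peaks included, against distance from the Sox9 start in kb, on a shared scale; dotted lines mark the starts of Kcnj16, Kcnj2 and Sox9. The tallest CTCF window holds sites 12 to 14, and no IgG window rises with it: IgG windows run from 5 to 62 tags.

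A scan of the region in windows, by the recount and on the same tags, led mostly to the deposited peaks. Of 9398 windows of 300 bp, 27 (0.287%) passed the recount at p 1e-05, against 0.467% in the genome. A deposited peak overlapped 26 of the 27 (96.3%), as it did 97.8% of passing windows in the genome. The peaks had been called from these same tags, so the overlap is no separate evidence for them. The window outside peaks, chr11:112386301-112386600, lay at -257.1 kb from the Sox9 start with 10 CTCF and 1 IgG tags (p 1.59e-06 by the recount).

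Starts of the gene families and of genes tied to Sox9 were counted for comparison. The SOX genes encode transcription factors with an HMG box. Of 20 annotated starts of 19 SOX genes, Sox9 included and Sox4 annotated at 2 places, 16 had a tag within 500 bp and 1 passed the test with more CTCF tags: Sox8, with 10 CTCF and 0 IgG tags (adjusted p 0.0467 by the exact binomial test). A summit lay within 2500 bp at 4 of the 20, those of Sox2, Sox6, Sox9 and Sox15, against 14.7% of all protein-coding starts. Of 15 genes for inward-rectifier channels, Kcnj2 and Kcnj16 included, 14 had a tag and none passed, and Kcnj2 alone had a summit within 2500 bp. Among 13 genes tied to Sox9 in cartilage and testis none passed, and Amh, which encodes the anti-Müllerian hormone, and Col9a1, a cartilage collagen gene, had a summit within 2500 bp. Over all protein-coding starts with a tag 5.14% passed, so counts of 0 and 1 in lists of this size are no result about them, and neither are 4, 1 and 2 summits.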

How the data were processed

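ChIP-Seq tags of a CTCF-GFP and an IgG library of R1/E ESCs were analysed, 1 library per antibody and without replicates. As the authors deposited them, both tag files list every aligned tag of 35 bp on its own line, a raw count of 1 each, and no position and strand was repeated. The deposited peaks carry a score, 10 times the negative log10 of a p-value against IgG, and the deposited summits a signal, the height of the pileup in tags. The submitters' processing notes name MACS 1.4 and mm9, and the aligner is not given in the sources used here.

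From these files, each tag was shifted towards its fragment centre by 94 bp (a length of 188 bp was estimated at the 1000 peaks with the highest scores) and counted within 150 bp of summits and motifs and 500 bp of gene starts. Ratios were scaled to library totals, with exact conditional intervals, and shares carry Wilson intervals (95%), for counting error only. Exact binomial tests were two-sided, with Benjamini-Hochberg adjustment over all summits, motif sites or gene starts of the genome at 0.05. The recount compared tags with the highest IgG rate over the genome, 1 kb, 5 kb and 10 kb. Windows of 300 bp were tested alike. The motif matrix came from 192 CTCF motif sequences that the study listed at sites of the cohesin subunit RAD21 in ESCs. It had a pseudocount of 1 and base frequencies of 0.29 (A, T) and 0.21 (C, G). Both strands of the NCBI m37 (mm9) sequence were scanned with it at p 1e-05. Where a summit had several matches, the one with the lowest p gave the direction. The run CCAGAAGAGGGC was searched on the motif strand of these matches. Python 3.11.15, numpy 2.4.6, pandas 2.3.3, scipy 1.17.1 and matplotlib 3.10.9 were used, and the tests were tried on simulated data.

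Named were the 3 genes and the other protein-coding genes of the region, the summits nearest the 3 starts, all summits between Kcnj2 and Sox9, the 5 highest, the ends of the longest gap and the 3 strongest matches outside peaks. Other summits were named after their values were seen. Sox1, named in the SOX list, was not analysed here. The region and the gene lists were chosen with earlier results of these data known. Alternatives varied the score, flank, window, scaling, motif threshold and comparison set.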

Additional observations from a re-analysis of the deposited data

How the results depend on the processing

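When peaks scoring under 100 were left out, the region held 12 summits in place of 26, and 6 in place of 12 between Kcnj2 and Sox9. With flanks of 250 kb or 1000 kb it held 15 or 57. The density between the genes was 0.305 times that of chr11 and 2.01 times that of the gene-free stretches, so its direction turned with the comparison. The second comparison is not like for like, since the interval holds the protein-coding gene Gm11678. Within 50 bp of the summit 30.8% had a motif in place of 80.8% (36.4% in the genome). The CTCF background against chr11 was 0.778 with peaks left in, and the IgG background 1.02 in windows of 50 kb. The other alternatives run kept within these ranges: the tag ratio at summits was 8.93 to 16.9, 21 to 26 summits passed the recount, 11 to 13 motifs were plus, 3 to 5 pairs were convergent and 15 to 21 strong motif sites had more CTCF tags. At motif p 1e-06 the share of these sites was above that of the genome (31.2% against 27.8%) in place of below it (8.94% against 12.4%), and neither difference was tested. No ratio could be given for the Sox9 and Kcnj16 starts at 500 bp, where a library had no tag. No paired analysis was possible because there was 1 library per antibody. With 9 to 24 CTCF tags at a summit, single sites of the region were not tested against each other, and a gene start with few tags limits only large enrichments.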
